A study of Ovis aries with 15 samples.

Results

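The genes described here are 7 of the 24691 features in the deposited table of the ovine mammary gland, and they were chosen by their symbols. PIGR and FCGRT encode the receptors that carry antibodies across epithelium. IGJ, MZB1, POU2AF1, TNFRSF17 and PRDM1 belong to the cells that secrete antibodies. All 7 symbols were present once, and IGJ is the older symbol of JCHAIN.

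Antibodies reach milk by 2 routes. The polymeric immunoglobulin receptor, encoded by PIGR, binds polymeric IgA and IgM on the basal side of secretory epithelial cells, carries them through the cell and is cleaved on the milk side. The neonatal Fc receptor, a pair of the FCGRT heavy chain and beta-2 microglobulin (B2M), binds IgG, the main antibody of ruminant colostrum, which is formed in the last weeks of pregnancy. Plasma cells lie in the tissue around the alveoli and secrete the polymeric antibodies, which are held together by the joining chain that IGJ encodes.

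RNA came from needle biopsies of 2-year-old Romney ewes in their first pregnancy, taken on about day 135 of gestation (late pregnancy, 9 libraries) and again about 15 days after lambing (lactation, 6 libraries). The ewes themselves were managed alike, and no treatment was given to them. Their own dams had been fed at sub-maintenance (LM), maintenance (MM) or ad libitum (HM) levels from day 21 to day 50 of gestation and at maintenance to day 140, and each of these 3 groups held 3 late pregnancy and 2 lactation libraries. Each library was made from pooled RNA, of 3 ewes in late pregnancy and, by the labels, of 2 ewes in lactation, where the study's methods give 3. The labels do not say which ewes entered a pool in both states, so p-values measure the spread between pools. A biopsy holds all the cells of the gland, and in such samples fewer cells of a type and less RNA per cell cannot be told apart.

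The libraries held 6471237 to 24001031 reads on exons. The 7 most abundant milk protein genes took 13.7% to 23.4% of these in late pregnancy and 71.3% to 75.8% in lactation. Reads were therefore scaled by TMM, which centres the bulk of the genes, and are given as CPM, reads relative to the scaled library. With library size alone, the median log2 change of all tested genes moved from -0.03 to -1.94. Luminal epithelial markers were present in both states and did not move together: KRT19 averaged 622 and 947 CPM, and KRT7 262 and 121 CPM. The lactation library of ad libitum dams, pool 1, stood apart, with 12.9% of its reads on introns against 5.74% to 6.54% in the other 5 lactation libraries. Without it, the calls of all 6 tested members stayed on the same side of the threshold.

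PIGR lies on chromosome 12 at 3986444 to 4004374 with 13 exons, and FCGRT on chromosome 14 at 54992985 to 54998658 with 6 exons. IGJ lies on chromosome 6 at 85672449 to 85710407 with 4 exons. MZB1 is on chromosome 5 at 48051002 to 48053103, POU2AF1 on chromosome 15 at 21071342 to 21096934, PRDM1 on chromosome 8 at 30930453 to 30953115 and TNFRSF17 on chromosome 24 at 10668983 to 10672314. The positions are those of the deposited table, whose build is given as version 3.2 in the study's methods and as Oar version 3.1 in the labels. Reads of these genes were placed uniquely, apart from a few of PIGR. The span of PIGR shares 1126 bases with that of FCAMR, and the kit kept no strand, so reads of the 2 genes cannot be told apart there.

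Per length, the 7 genes covered a wide range of levels. In late pregnancy the mean RPKM, which divides reads by exon length and library size, was 440.0 ± 54.5 for PIGR (SD, n = 9), 69.7 ± 6.35 for FCGRT and 46.2 ± 14.3 for IGJ. Among the low genes it was 1.30 ± 0.452 for MZB1, 1.18 ± 0.140 for PRDM1, 0.350 ± 0.127 for POU2AF1 and 0.271 ± 0.171 for TNFRSF17. PIGR stood at rank 141 of all features. FCGRT overlapped IGJ in range, MZB1 overlapped PRDM1, POU2AF1 and TNFRSF17, and POU2AF1 overlapped TNFRSF17. In lactation the mean RPKM was 346 ± 43.3 for PIGR (SD, n = 6), 24.9 ± 8.41 for IGJ, 8.50 ± 1.19 for FCGRT and 2.27 ± 0.534 for MZB1. PRDM1 followed at 0.344 ± 0.0600, POU2AF1 at 0.147 ± 0.0578 and TNFRSF17 at 0.134 ± 0.0993. TNFRSF17 overlapped POU2AF1 in range and narrowly PRDM1, and no other ranges overlapped. PIGR now stood at rank 72. FCGRT and IGJ exchanged places: the RPKM of FCGRT exceeded that of IGJ in 9 of 9 late pregnancy libraries and in 0 of 6 lactation libraries.

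The comparison of lactation with late pregnancy asks which genes change as the gland turns from growth and colostrum formation to milk secretion. It was made with edgeR's quasi-likelihood test on reads over exons, and a gene was called at a Benjamini-Hochberg adjusted p under 0.05 over all 13345 tested genes. Of the 7 genes, 6 passed the filter on low counts and 4 were called, where 68.4% of all tested genes were called. PIGR, IGJ and MZB1 were called higher, against a background of 33.1%, and FCGRT lower, against 35.2%. The ranges of CPM did not overlap between the states for PIGR and MZB1, above, and FCGRT, below, where 20.2% and 20.0% of tested genes stood so. A call is thus common in this comparison, and the counts alone do not set these genes apart. With library size alone, 97.8% of tested genes were called, 95.2% lower and 2.64% higher, and of the members 5 were called lower and MZB1 higher.

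**Figure D1:**
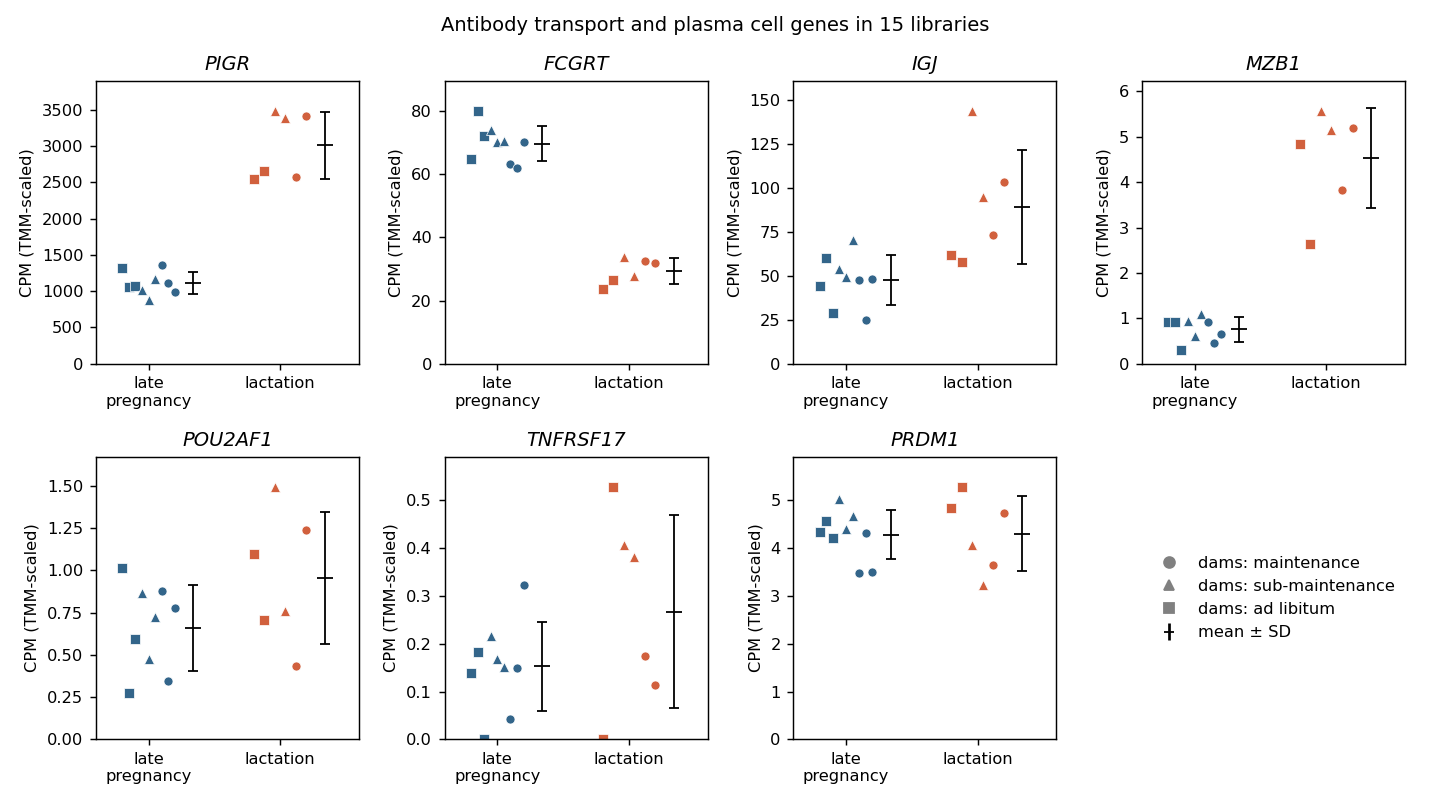
CPM of each gene in every library (vertical axes from 0, 1 point a library, shapes for the feed of the ewes' dams, bars for mean ± SD over 9 and 6 libraries). The states separate for PIGR, FCGRT and MZB1 and overlap for IGJ, POU2AF1, TNFRSF17 and PRDM1.

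PIGR, the receptor for polymeric IgA and IgM, was the most abundant of the 7 in both states. Its level was 881 CPM in the lowest late pregnancy library, 1075 in the median and 1362 in the highest, and 2540, 3016 and 3477 CPM in lactation. All 6 lactation libraries were above all 9 late pregnancy libraries. The change was 2.71-fold upward, a log2 change of 1.44 ± 0.10 (SE; adjusted p = 8.9e-11, edgeR), and with library size alone it turned to -0.47 ± 0.09 (adjusted p = 2.1e-05). On that scale PIGR took 0.187% ± 0.0229 (SD, n = 9) of all reads in late pregnancy and 0.135% ± 0.0154 (SD, n = 6) in lactation (two-sided exact permutation p = 0.0004). Relative to the reads outside the 7 milk protein genes, on the same scale as CPM, its median went from 2180 to 5381 and the states did not overlap (exact permutation adjusted p = 0.00047). Against KRT19 in the same library, a gene chosen after its values were seen, PIGR had a median of 1.57 reads for each KRT19 read in late pregnancy and 3.21 in lactation (exact permutation adjusted p = 0.0021 over 6 such ratios), with overlapping ranges. KRT19 is 1 luminal marker that was itself called higher with TMM, while KRT7 was called lower (-1.12 ± 0.09), and ratios to the others were not tested.

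FCGRT, the heavy chain of the neonatal Fc receptor, went the other way. It measured 62.1 CPM in the lowest late pregnancy library, 70.4 in the median and 80.0 in the highest, and 23.5, 29.8 and 33.9 CPM in lactation. The lactation libraries were all below the late pregnancy libraries. It fell 2.35-fold, a log2 change of -1.23 ± 0.08 (SE; adjusted p = 2.8e-11, edgeR), and fell under every scaling tried, to -3.14 with library size alone. It also varied least of the 7 among late pregnancy pools, with a coefficient of variation of 8.05%.

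B2M, which pairs with FCGRT and with the class I histocompatibility chains, did not follow FCGRT. B2M averaged 1734 ± 145 CPM (SD, n = 9) in late pregnancy and 2158 ± 217 CPM (SD, n = 6) in lactation. Its log2 change was 0.32 ± 0.07 (adjusted p = 0.00054, edgeR) with TMM, -1.59 with library size alone and -2.37 with limma on the deposited normalized RPKM, a scale on which 7 of the 9 late pregnancy libraries share 1 value for B2M. The ratio of FCGRT to B2M reads within a library, which no scaling changes, went from a median of 0.0390 (0.0345 to 0.0506) to 0.0139 (0.0104 to 0.0171). No lactation library reached the late pregnancy range (log2 difference -1.57, exact permutation adjusted p = 0.0004).

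IGJ, the joining chain of polymeric IgA and IgM, was the most abundant of the plasma cell genes. It measured 24.7 CPM in the lowest late pregnancy library, 48.2 in the median and 70.7 in the highest, and 57.7, 84.3 and 144 CPM in lactation. The ranges overlapped, and 4 of the 6 lactation libraries lay above every late pregnancy library. IGJ rose 1.88-fold with TMM, a log2 change of 0.91 ± 0.21 (SE; adjusted p = 0.00062, edgeR), and turned to -1.01 ± 0.21 with library size alone. Its spread was wide, with a coefficient of variation of 29.9% in late pregnancy and 36.1% in lactation. Leaving out each library in turn gave log2 changes of 0.73 to 1.01, all called.

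MZB1, a chaperone of the endoplasmic reticulum that helps assemble IgM and IgA, had the largest rise of the 7. Its counts were low, between 4 and 29 reads before lambing and between 15 and 46 after. It measured 0.296 CPM in the lowest late pregnancy library, 0.914 in the median and 1.10 in the highest, and 2.64, 4.99 and 5.56 CPM in lactation. All 6 lactation libraries were above all 9 late pregnancy libraries. MZB1 rose 5.82-fold, a log2 change of 2.54 ± 0.22 (adjusted p = 4.0e-09, edgeR), and was the one member that also rose with library size alone (0.64 ± 0.23, adjusted p = 0.010).

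POU2AF1, a coactivator of octamer-binding factors in B cells and plasma cells, was near the limit of the depth, with between 3 and 24 reads before lambing and between 4 and 11 after. It measured 0.274, 0.722 and 1.01 CPM in the lowest, median and highest late pregnancy library, and 0.435, 0.930 and 1.49 CPM in lactation. The ranges overlapped, and the log2 change of 0.46 ± 0.32 did not pass the test (adjusted p = 0.21, edgeR). With limma on the normalized RPKM plus 0.1 it was 0.58 ± 0.24 (adjusted p = 0.040), and with library size alone -1.42 ± 0.30 (adjusted p = 0.00011).

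TNFRSF17, also known as BCMA, is the receptor through which plasma cells receive survival signals. It had 0, 3 and 6 reads in the lowest, median and highest late pregnancy library and 0, 2 and 3 reads in lactation. It did not pass the filter, and no difference was detectable at this depth. PRDM1 encodes Blimp-1, the repressor that sets the plasma cell program and acts in T cells and epithelia too. It measured 3.47, 4.33 and 5.03 CPM in the lowest, median and highest late pregnancy library, and 3.24, 4.40 and 5.27 CPM in lactation. The lactation range enclosed that of late pregnancy, and the log2 change was -0.01 ± 0.13 (adjusted p = 0.97, edgeR), close to the median of all tested genes under TMM and with library size alone (-1.91).

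**Figure D2:**
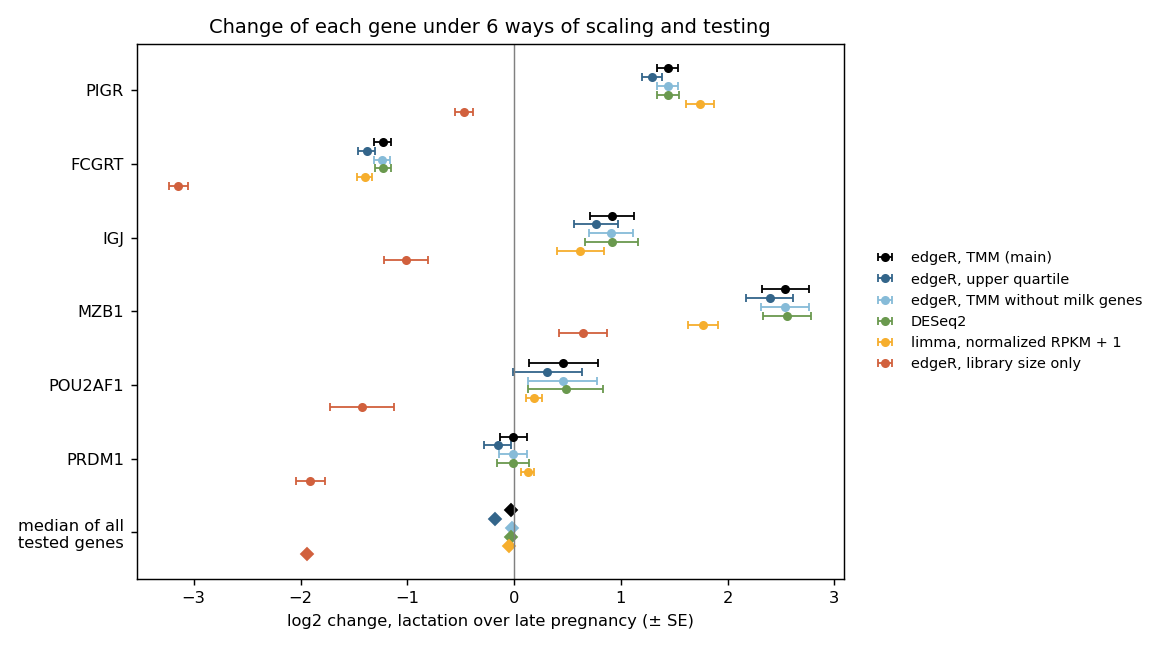
Log2 change of the 6 tested genes, lactation over late pregnancy (horizontal axis, points with SE bars), under 6 ways of scaling and testing, with the median of all tested genes for each (diamonds). FCGRT stays below 0 and MZB1 above 0 in all 6, while PIGR, IGJ and POU2AF1 lie above 0 in 5 and below 0 with library size alone.

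Ratios of reads within a library do not depend on the scaling. They were added after the values were seen, as 15 ratios among the 6 tested genes. Each was tested by exact permutation of the state labels, with Benjamini-Hochberg adjustment over the 15, and 12 had an adjusted p under 0.05. The share of like ratios among other genes was not computed. With 68.4% of all tested genes called between the states, this count does not set the 6 genes apart. The ratio of PIGR to FCGRT had a median of 14.9 (12.5 to 21.5) in late pregnancy and 105 (79.1 to 122) in lactation, a log2 difference of 2.69 (exact permutation adjusted p = 0.00037). There were 64.1 IGJ reads for each MZB1 read in the median late pregnancy library (48.3 to 97.5) and 19.6 in lactation (12.8 to 25.9), so the 2 plasma cell genes did not keep their proportion (log2 difference -1.71, exact permutation adjusted p = 0.00037). MZB1 also gained on PIGR, which went from 1450 to 658 reads for each MZB1 read (log2 difference -1.17, exact permutation adjusted p = 0.0006). The ratio of PIGR to IGJ, receptor to joining chain, had medians of 20.4 and 35.3 with overlapping ranges (log2 difference 0.54, exact permutation adjusted p = 0.053). For IGJ against POU2AF1 the log2 difference was 0.31 (exact permutation adjusted p = 0.36).

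**Figure D3:**
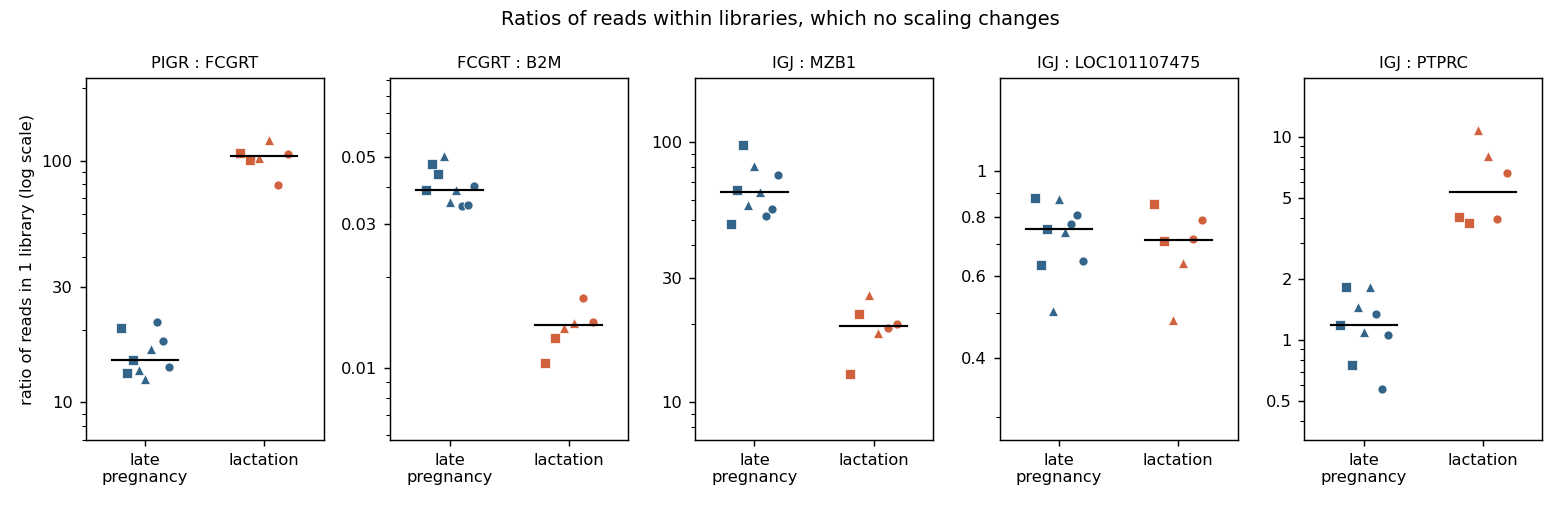
Ratios of reads within each library (log vertical axes, 1 point a library, lines at the medians, shapes as for the CPM plot: circles for maintenance, triangles for sub-maintenance and squares for ad libitum dams). The states separate for PIGR to FCGRT, FCGRT to B2M, IGJ to MZB1 and IGJ to PTPRC, and overlap for IGJ to LOC101107475.

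The antibody chains themselves carry no symbols in the table. Features that RefSeq lists as constant regions or variable segments of antigen receptors were found by gene ID after the values of the members were seen, 40 in all. Of these, 4 lay on chromosome 18, 2 on chromosome 17 and 1 on chromosome 3, the chromosomes that carry the sheep antibody heavy and light chain genes, and their isotypes were not assigned. LOC101107475, a constant region feature on chromosome 18 at 68447945 to 68449663, was the most abundant. It measured 30.5, 61.7 and 107 CPM in the lowest, median and highest late pregnancy library, and 72.7, 117 and 298 CPM in lactation, with ranges that overlapped. Its log2 change was 1.04 ± 0.29 (adjusted p = 0.0033, edgeR) with TMM and -0.88 ± 0.28 with library size alone. LOC101108522, another constant region feature on that chromosome, averaged 26.5 and 24.7 CPM and did not pass the test (log2 change -0.12 ± 0.25, adjusted p = 0.69, edgeR). On chromosome 3, the variable segment LOC101110577 averaged 3.67 and 5.44 CPM (0.61 ± 0.32, adjusted p = 0.098, edgeR). This call depended on the fit: it passed with the replicate block (0.83, adjusted p = 0.047, edgeR) and with limma (adjusted p = 0.042 with 1 added and 0.013 with 0.1 added), and with library size alone the change was -1.30 (adjusted p = 0.00057, edgeR). The remaining 4 features on these chromosomes did not pass the filter.

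Of 17 features on chromosomes 4 and 7, which carry T cell receptor genes, 4 were tested, all on chromosome 4, and these 4 were called lower (median -2.11). Of those not placed on a chromosome, the constant region feature LOC101107504 was called lower (-2.15 ± 0.15), and LOC101108817 averaged 9.05 and 8.85 CPM (0.01 ± 0.30, adjusted p = 0.98, edgeR). Reads of several antigen receptor features were not all placed uniquely. The unique share was 38.2% for LOC101120322 and 70.3% for LOC101107518, both on chromosome 4. It was 47.1% for LOC101107504, 69.8% for LOC101108522 and 86.3% for LOC101108817, and 100% for LOC101107475 and LOC101110577.

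IGJ was also set against LOC101107475, the most abundant of the 40 antigen receptor features, which was chosen after the values were seen. Ratios of IGJ to the other such features were not tested. Among these, LOC101108522 had changed by -0.12 with TMM, where IGJ changed by 0.91. For each LOC101107475 read, late pregnancy libraries held a median of 0.753 IGJ reads (0.504 to 0.876) and lactation libraries a median of 0.714 (0.482 to 0.852). The log2 difference between the states was -0.08 (exact permutation adjusted p = 0.60), with SDs of 0.26 and 0.29 among libraries. A p of this size does not show that the ratio is constant. Over the 15 libraries, after each state was centred on its own mean, the log2 CPM of IGJ correlated at 0.94 with that of LOC101107475, the second closest of all tested features. The closest was LOC101109564 (0.96), which the reference table does not name, and the third was LOC101119889 (0.91).

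**Figure D4:**
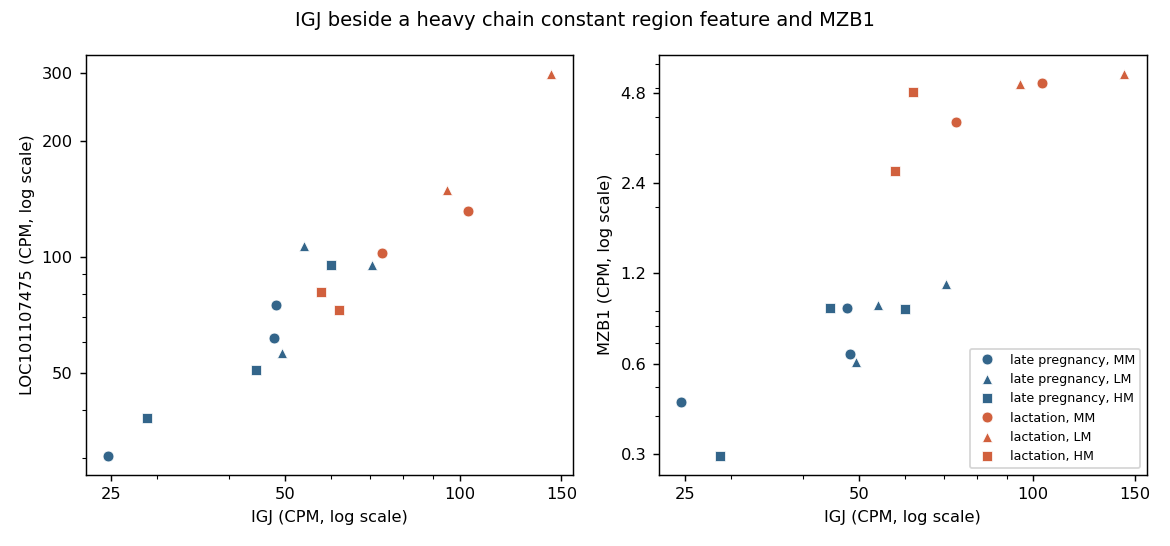
IGJ against LOC101107475 (left) and MZB1 (right), in CPM on log axes, 1 point a library, coloured by state with shapes for the feed of the ewes' dams. The points of both states lie in 1 band on the left, while on the right the lactation libraries lie above those of late pregnancy at like IGJ levels.

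Among the members themselves, IGJ and MZB1 were the most alike. Their within-state correlation over the 15 libraries was 0.80, and MZB1 ranked ninth in likeness to IGJ among all tested features. Within late pregnancy alone, 21 pairs of members were compared over 9 libraries. For IGJ and MZB1, Pearson's r was 0.86 (exact permutation p = 0.0041, adjusted p = 0.086) and Spearman's rho 0.65 (exact permutation p = 0.067, adjusted p = 0.39). Without the 2 libraries farthest from the median of IGJ, r was 0.57. No pair passed after adjustment over the 21, and PIGR and IGJ had an r of -0.04 (exact permutation p = 0.93). The features most like PIGR were ZNF239 (0.82), LOC101117816 (0.79) and C21H11orf75 (0.79), and those most like FCGRT were LAMB3 (0.91), FAM53B (0.89) and CRELD1 (0.87). For PRDM1 they were U2SURP (0.81), CCDC64B (0.80) and OSGIN2 (0.79). POU2AF1 was closest to RPS27L (0.86), LOC101105367 (0.84) and YPEL2 (0.83), and MZB1 to RPIA (0.87), PPP1R1B (0.86) and SPINT2 (0.86). These correlations share the scaling and depth of the libraries and are given as a description.

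IGJ lies on the same stretch of chromosome 6 as the casein genes, with other features between them. CSN3, the kappa-casein gene, ends 353548 bases before it, and UTP3, a gene of ribosome formation, begins 275 bases after it. CSN3 rose by 3.29 ± 0.14 on the log2 scale with TMM (adjusted p = 4.8e-14, edgeR). UTP3 measured 15.7 and 15.9 CPM, and its log2 change was 0.02 ± 0.07 (adjusted p = 0.86, edgeR). ENAM, which lies between CSN3 and IGJ and ends 8884 bases before IGJ, had at most 3 reads in any library. These neighbours were chosen by position, after the values of IGJ were seen.

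Reads on introns gave a second readout for 3 of the 7 genes, and the remaining 4 had too few. Of 10344 genes tested on introns, 57.1% were called, 32.5% higher and 24.6% lower. FCGRT was called lower on introns as on exons, with a log2 change of -1.61 ± 0.33 (adjusted p = 0.00019, edgeR). This rests on few intron reads, 23 to 49 in a late pregnancy library and 1 to 7 in a lactation library. The log2 ratio of FCGRT exon to intron reads differed by 0.41 (exact permutation p = 0.26). Without the ad libitum lactation library of pool 1 it differed by 0.71 (exact permutation p = 0.025). IGJ rose on introns by 0.86 ± 0.16 (adjusted p = 4.3e-05, edgeR) with TMM factors and changed by -1.05 with library size alone. For PIGR the intron change was -0.14 ± 0.23 (adjusted p = 0.62, edgeR), where its exon reads had changed by 1.44. Intron reads made up a median of 0.418% of PIGR reads in late pregnancy (0.138% to 0.582%) and 0.114% in lactation (0.102% to 0.236%). The log2 ratio of PIGR exon to intron reads differed by 1.53 between the states (exact permutation p = 0.0006), and by 1.55 without the library with many intron reads. Its exon change less its intron change stood at the 99.4th percentile of the 9801 genes tested on both, whose median difference was -0.05. B2M differed in the same direction, with 0.32 on exons and -0.59 ± 0.09 on introns. For IGJ the log2 ratio of exon to intron reads differed by 0.06 (exact permutation p = 0.87).

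The feed of the ewes' dams was compared over the 9 late pregnancy libraries, 3 in each group. None of the 6 tested members was called, where edgeR called 0.0% of 13747 tested genes (571 at an unadjusted p under 0.05, and 20 genes called by DESeq2). PIGR averaged 1154 ± 192 CPM in the maintenance group (SD, n = 3), 1021 ± 144 in the sub-maintenance group and 1149 ± 145 in the ad libitum group. IGJ averaged 40.2 ± 13.5, 58.0 ± 11.3 and 44.4 ± 15.6 CPM in the same order. The adjusted p was above 0.99 for every tested member, and the lowest unadjusted p was 0.14, for PRDM1.

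The state change was also read within each feed group, and within the libraries whose column names carry the number 7 or 8. That number is written like a sequencing lane, but each library was run on 2 lanes that were combined, and what it marks is not given in the sources used here. Feed and number are tangled, since all 5 sub-maintenance libraries carry an 8 and 4 of the 5 ad libitum libraries a 7. PIGR changed by 1.38 in the maintenance group, 1.76 in the sub-maintenance group and 1.18 in the ad libitum group on the log2 scale, and FCGRT by -1.01, -1.20 and -1.53. MZB1 changed by 2.71, 2.61 and 2.32. All of these passed the test in each group. IGJ changed by 1.14 and 1.06 in the first 2 groups and passed there, while in the ad libitum group it changed by 0.44 ± 0.24 (adjusted p = 0.16, edgeR). Its lactation levels were 57.7 to 62.0 CPM in that group, 95.0 to 144 CPM in the sub-maintenance group and 73.5 to 104 CPM in the maintenance group. The interaction of feed and state itself was called for 0.0% of genes by edgeR (876 at an unadjusted p under 0.05, and 19 genes called by DESeq2). Among the members, the adjusted p of this interaction was lowest for FCGRT (adjusted p = 0.74, edgeR), followed by PIGR (adjusted p = 0.76, edgeR). Before adjustment, p was 0.020 with edgeR and 0.023 with DESeq2 for FCGRT, and 0.062 and 0.033 for PIGR. PIGR changed by 1.09 in the libraries numbered 7 and 1.74 in those numbered 8, and IGJ by 0.56 ± 0.23 (adjusted p = 0.059, edgeR) and 1.18 ± 0.21 (adjusted p = 0.00039, edgeR). In lactation, PIGR measured 2540 to 2653 CPM in the 3 libraries numbered 7 and 3380 to 3477 CPM in the 3 numbered 8, and IGJ 57.7 to 73.5 and 95.0 to 144 CPM. Neither gene overlapped between the numbers there, nor did MZB1, at 2.64 to 4.84 and 5.14 to 5.56 CPM. In late pregnancy the median of PIGR was 1215 CPM with a 7 and 1013 CPM with an 8, with overlapping ranges. In the ad libitum and sub-maintenance lactation libraries, feed and number cannot be told apart. The 2 maintenance lactation libraries share a feed and carry different numbers. PIGR measured 2574 CPM in the one numbered 7 and 3412 CPM in the one numbered 8, and IGJ 73.5 and 104 CPM. On these 2 libraries the parts of feed and number were not tested. FCGRT and MZB1 passed with both numbers.

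Related genes were taken from lists by function, of which 182 genes were found in the table. Of those tested, 47 (32.2%) were called higher and 66 (45.2%) lower with TMM, where 33.1% and 35.2% of all tested genes were, and 5 and 139 with library size alone. The lists are given by their counts and medians, and the median of all tested genes was -0.03 with TMM and -1.94 with library size alone.

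Of the genes that move PIGR through the cell, 8 of 15 tested were called higher and 3 lower (median 0.58, and -1.33 with library size alone). VPS35, a subunit of the retromer that returns cargo from endosomes, rose by 1.28 ± 0.05 with TMM. RAB17, a small GTPase of epithelial transcytosis, changed by -1.23 ± 0.30, and MAL2, a membrane protein needed for transcytosis, by -0.89 ± 0.06, both called lower. Of the regulators of PIGR transcription, 6 of 15 were called higher and 5 lower (median -0.04, and -1.94 with library size alone). IRF1, the interferon-induced factor that binds the PIGR promoter, changed by -2.41 ± 0.13, from 33.4 to 6.02 CPM. RELA, a subunit of NF-kB, changed by 0.89 ± 0.05 and IFNGR2, a chain of the interferon gamma receptor, by 1.43 ± 0.06 with TMM.

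Of the other Fc receptor genes and B2M, 2 of 8 tested were called higher and 5 lower (median -0.48, and -2.38 with library size alone). FCGR2B, the inhibitory receptor for IgG, was abundant in late pregnancy at 833 ± 58.3 CPM (SD, n = 9) and lay at 125 ± 31.4 CPM (SD, n = 6) in lactation, a log2 change of -2.74 ± 0.11. FCRLA, an Fc receptor-like protein of B cells, had up to 83 reads in late pregnancy and at most 1 in each lactation library. FCAMR, a receptor for IgA and IgM, was called higher on 3 to 27 reads, which cannot be told apart from those of PIGR where the spans overlap.

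Of the genes of the plasma cell program and of its secretory machinery, 13 of 19 tested were called higher and 3 lower with TMM (median 0.72), and 1 higher and 17 lower with library size alone (median -1.19). No test of the list itself was made. Many of them serve secretion in other cells too. XBP1, the factor that expands the endoplasmic reticulum, changed by 1.49 ± 0.06 with TMM and by -0.42 with library size alone. ELL2, an elongation factor that favours secreted antibody transcripts, changed by 2.65 ± 0.09, and SSR4, a translocon subunit, by 0.21 ± 0.09. SLAMF7, a surface marker of plasma cells, was called lower (-1.64 ± 0.21). Of the survival factors of plasma cells and their receptors, 4 of 6 were called higher and none lower (median 0.40, and -1.51 with library size alone). TNFSF13, also known as APRIL and a ligand of TNFRSF17, rose by 2.18 ± 0.13 with TMM and changed by 0.28 with library size alone. IL6R changed by 1.53 ± 0.10 and TGFBR2 by 0.36 ± 0.06 with TMM.

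Of the homing genes, 1 of 6 tested was called higher and 4 lower (median -1.16, and -3.04 with library size alone). CCL28, the chemokine that draws IgA-secreting cells into the gland, was the one called higher, from 7.19 ± 1.81 CPM (SD, n = 9) to 18.6 ± 2.93 CPM (SD, n = 6), a log2 change of 1.38 ± 0.15 that turned to -0.53 with library size alone. ITGB7, an integrin of gut-homing lymphocytes, was called lower (-1.84 ± 0.14), and ITGB1 changed by -0.03 ± 0.06. CCR6, another of those called lower, had at most 2 reads in any lactation library. With its change held to what 3 lactation reads would give, the median of the homing genes was -0.63. This median depended on the filter: without it, 2 of 13 were called higher and 5 lower, with a median of -0.08 against -0.12 for all genes. B cell identity genes were called lower in 5 of 9 and higher in 1 (median -0.75, and -2.64 with library size alone). CD22, a surface receptor of B cells, was the one called higher (3.08 ± 0.17), on 6 to 63 reads, while CD180 changed by -1.54 ± 0.29 and EBF1 by -0.55 ± 0.14. PAX5 had no reads, and MS4A1 and CD79B were too low to test.

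**Figure D5:**
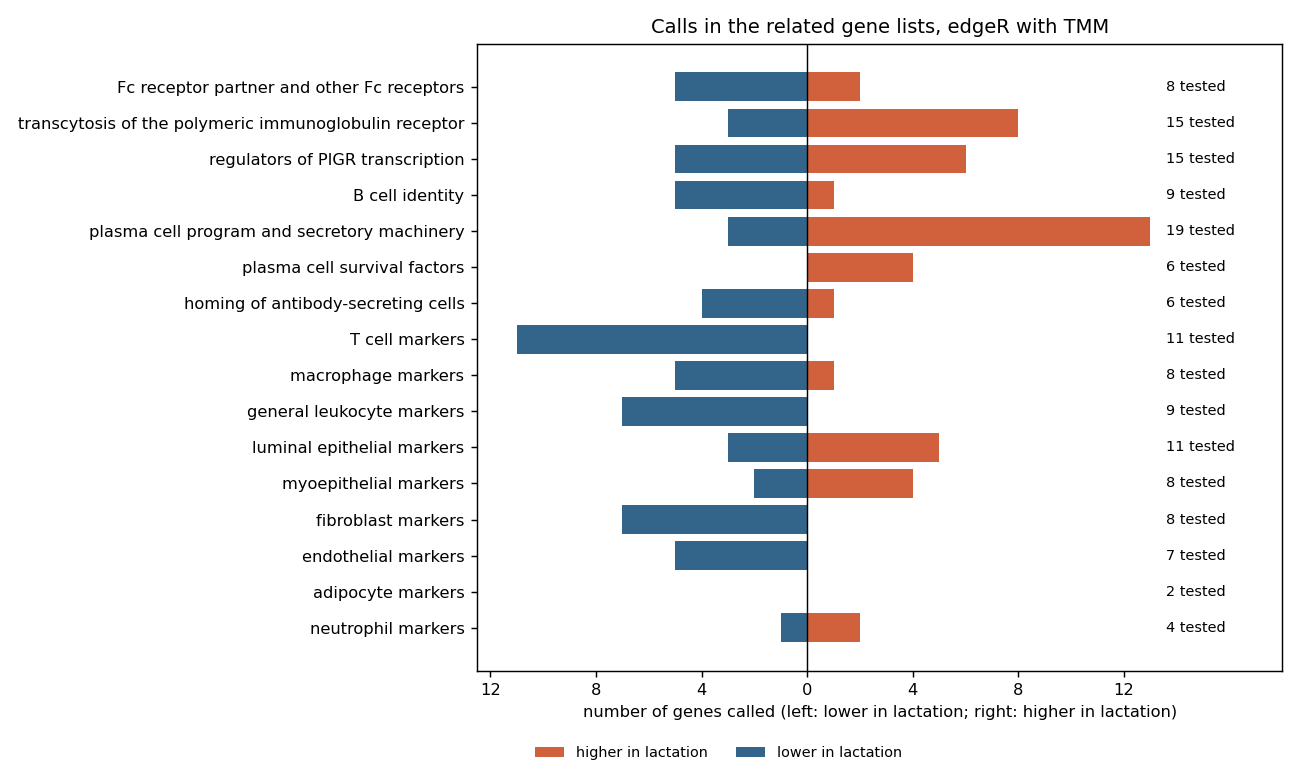
Number of genes called in each related list with edgeR and TMM, to the left lower and to the right higher in lactation, with the number tested at the right edge. T cell markers were called lower in 11 of 11, and the plasma cell program holds 13 called higher of 19 tested, a split that turns to 1 higher and 17 lower with library size alone.

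Markers of other cells moved with the state as well, and medians are given with TMM and then with library size alone. T cell markers were called lower in 11 of 11 tested (median -1.60 and -3.50), with a summed level of 56.2 to 90.5 CPM in late pregnancy and 19.3 to 28.9 CPM in lactation. LCK, a kinase of T cell receptor signalling, changed by -1.86 ± 0.16. General leukocyte markers were called lower in 7 of 9 and higher in none (median -1.05 and -2.95). Macrophage markers were called lower in 5 of 8 and higher in 1 (median -0.70 and -2.61), the one being CD14, a receptor for bacterial lipopolysaccharide (2.13 ± 0.13 with TMM). Fibroblast markers were called lower in 7 of 8 (median -0.54 and -2.45), among them the collagen gene COL1A2 (-1.45 ± 0.15), and endothelial markers in 5 of 7 (median -0.49 and -2.39). Luminal epithelial markers were called higher in 5 of 11 and lower in 3 (median 0.13 and -1.77), and these counts were 3 and 4 with the upper quartile, 3 and 5 with limma and 0 and 11 with library size alone. KRT19 and ELF5, a factor of secretory differentiation, summed to 1251 and 2047 CPM, and the other 9 tested luminal markers to 835 and 702 CPM. Myoepithelial markers were called higher in 4 of 8 and lower in 2 (median 0.24 and -1.67), and 1 and 3 with limma. Neutrophil markers were called higher in 2 of 4 and lower in 1 (median 0.27 and -1.60), neither of 2 adipocyte markers was called (median -0.48 and -2.39), and no erythrocyte marker was tested. PTPRC, which encodes CD45, was called lower (-1.37 ± 0.09). For each PTPRC read there were 1.18 IGJ reads in the median late pregnancy library (0.578 to 1.83) and 5.34 in lactation (3.77 to 10.8), and the states did not overlap (exact permutation adjusted p = 0.0004). PTPRC was chosen after its values were seen. With IGJ called higher and PTPRC lower, a change in this ratio follows from those calls. The part of these cell populations in the changes of PIGR, FCGRT, IGJ and MZB1 was not tested.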

How the data were processed

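Biopsy RNA of 15 pooled libraries was sequenced by the authors as 100-base paired-end reads on 2 lanes each and mapped in CLC Genomics Workbench to the sheep genome. The read counts per gene and over exons, the RPKM values and the quantile-normalized RPKM values were used as the authors deposited them. The deposited fold changes and p-values of the authors' own comparison were not used. Exon counts were tested (whole-gene counts where no transcript was annotated) with edgeR 4.0.16 in R 4.3.3, with TMM scaling, filterByExpr and the quasi-likelihood test. Adjusted p-values are Benjamini-Hochberg over all tested genes, called under 0.05. Intron counts were whole-gene less exon counts, scaled with the exon TMM factors. Ratios of reads had 0.5 added to both genes in the test only, and permutation tests were exact and two-sided. DESeq2 1.42.0, limma 3.58.1 on log2(normalized RPKM + 1) or + 0.1, other scalings and filters, and leaving out each library were the alternatives. The fits were tested on simulated data.

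Gene reads per library were 7597938 to 25679416. A gene with a few reads is thus known only to counting error, which limits MZB1, POU2AF1 and TNFRSF17. The members and lists were chosen with earlier results of these data known. Genes to name from a list were the called ones with the largest rise and fall and the 2 with the highest mean CPM, of which only some are named for the cell type lists, and for each tested member the 3 features most like it in log2 CPM centred within states. PTPRC, MS4A1, CD79B and PAX5, the antigen receptor features, the ratios and the neighbours of IGJ were chosen after values were seen. Of the listed genes, 9 were matched by gene ID. Replicate numbers were checked for pairing across the states. Sequences were not used here. A gene of the B cell list, and the summed level of that list, are not reported here.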

Additional observations from a re-analysis of the deposited data

How the results depend on the processing

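Library size alone turned the log2 change of PIGR to -0.47, of IGJ to -1.01 and of POU2AF1 to -1.42, and brought PRDM1 to -1.91, past the threshold. It left 1 member called higher and 5 lower, and 5 related genes higher and 139 lower, and it gave intron changes of -2.04 for PIGR and -1.05 for IGJ. This scale keeps the milk protein reads in the denominator. IGJ did not pass in the libraries numbered 7 (0.56) or the ad libitum group (0.44), and passed in the other subsets, of like size. POU2AF1 passed with limma, at 0.19 with 1 added and 0.58 with 0.1 added, and the cause of these changes was not tested. A filter of 10 reads in every library left MZB1 and POU2AF1 without a value. FCGRT and MZB1 kept their direction and call in every alternative that gave a value. Leaving out each library gave 1.39 to 1.48 for PIGR, -1.27 to -1.18 for FCGRT, 0.73 to 1.01 for IGJ, 2.46 to 2.65 for MZB1, 0.27 to 0.68 for POU2AF1 and -0.07 to 0.05 for PRDM1, with 44 to 47 related genes called higher and 63 to 69 lower. The ratio of PIGR to IGJ, with log2 differences of 0.46 to 0.65, lost its unadjusted p under 0.05 in 10 of 15 such fits.

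Across the states, the deviations of pools of the same number correlated at r of -0.05 to 0.12 over 6 pairs. Those of pools of other numbers correlated at -0.17 to 0.13. Values this weak do not decide whether pools of the same number share ewes. With the replicate block the log2 changes were 1.42 for PIGR, -1.22 for FCGRT, 0.93 for IGJ, 2.54 for MZB1, 0.54 for POU2AF1 and -0.02 for PRDM1, and no member's call changed. With its own number, 1 of 6 lactation libraries correlated best.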
